A study of Mus musculus with 12 samples.

Results

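The variable part of the T cell receptor (TCR) beta chain is encoded by 1 of the V segments of the Trb locus on chromosome 6, and the shares in which these segments were used were compared between 4 groups of lymph node (LN) T cells. The segments were taken as every row of the count table whose symbol starts with Trbv. There were 35 such rows among 49585 genes, 22 of them annotated as functional V segments and 13 as V pseudogenes. Usage of a segment was expressed as its percent of all Trbv counts of the same sample. RNA-seq covered CD4+ and CD8+ T cells of C57BL/6 (B6) mice and sorted CD8.1+ cells and CD8.2+ cells of CD8 Dual mice, with 3 samples of pooled sorted cells in each group and 12 in all. CD8 Dual mice, which the sample titles call 8in4, were built to make no CD4 protein and have a pair of sources of CD8. CD8.1 T cells carried the form with the α.1 allele, whose α and β chains are made from an engineered Cd4 locus, and CD8.2 T cells the form with the α.2 allele from the unaltered Cd8 locus. All mice were labelled male and 6-10 weeks old, and all cells were sorted from LN as positive for TCRβ (antibody H57) and CD62L, a receptor for entry into LN. The methods add that the cells were CD44-, and the labels name no CD44 gate. The labels do not say whether samples of a group came from separate animals, so the P values measure the spread between these samples of pooled cells.

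A TCR beta gene is assembled in the thymus, where the RAG recombinase joins a D segment to a J segment and then a V segment to that product. Each V segment supplies the leader peptide, the first and second complementarity-determining regions and the start of the third, which is completed by the D and J segments and by bases added at the joints. T cells with the resulting receptors are kept or lost by their fit to peptides on major histocompatibility complex (MHC) molecules, with CD4 binding MHC class II and CD8 binding MHC class I, and the CD4+ and CD8+ T cells of a mouse are known to use V segments in unequal shares. The study describes both CD8.1 cells and CD8.2 cells as cells selected on MHC class I.

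All 35 rows lay on chromosome 6 in GRCm38 (mm10, GENCODE M21), the first being Trbv1 at chr6:40891229-40891885 and the last Trbv31 at chr6:41557691-41558452. Older Vβ names are given from RefSeq, which matched 24 of the 35 rows. Every functional segment had 2 exons, a leader exon and a V exon, and all were on the plus strand except Trbv31, which alone lies beyond the D, J and constant segments and is joined by inversion. Germline ends are shown for the 5 segments with the largest share ratio in each direction between B6 CD4+ and CD8+ T cells, among segments with a mean share of at least 1%, to make clear what distinguishes one row of counts from another in the part of the receptor that meets the peptide. Each line gives the last 45 bases of the first annotated transcript, at the 3′ end of the V exon, with the codon of the conserved cysteine that opens the third complementarity-determining region in capitals. The first 5 segments had higher shares in B6 CD4+ T cells and the last 5 in B6 CD8+ T cells.
Trbv31: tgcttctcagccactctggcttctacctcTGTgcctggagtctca
Trbv2: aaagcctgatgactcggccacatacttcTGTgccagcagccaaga
Trbv20: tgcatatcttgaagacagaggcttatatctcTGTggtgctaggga
Trbv1: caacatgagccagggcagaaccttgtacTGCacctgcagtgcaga
Trbv26: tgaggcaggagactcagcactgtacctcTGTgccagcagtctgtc
Trbv12-1: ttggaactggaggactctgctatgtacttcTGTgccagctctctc
Trbv12-2: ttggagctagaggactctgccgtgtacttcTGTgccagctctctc
Trbv14: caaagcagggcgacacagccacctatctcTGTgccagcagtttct
Trbv17: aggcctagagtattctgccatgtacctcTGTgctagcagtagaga
Trbv29: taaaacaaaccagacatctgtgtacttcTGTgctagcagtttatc

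The ends of Trbv12-1 and Trbv12-2 were identical from that codon on, and the annotated transcripts of both matched at 88.3% of aligned bases. A longer stretch of exon 2 is shown for this pair, with the 9 bases that differ in capitals, since their counts moved to different degrees. For both copies, 100% of stretches of the study's read length were unique among the Trbv transcripts. How reads with fewer bases on a copy were divided is uncertain.
Trbv12-1: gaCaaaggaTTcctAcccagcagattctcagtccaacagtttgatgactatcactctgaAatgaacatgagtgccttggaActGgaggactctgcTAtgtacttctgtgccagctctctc
Trbv12-2: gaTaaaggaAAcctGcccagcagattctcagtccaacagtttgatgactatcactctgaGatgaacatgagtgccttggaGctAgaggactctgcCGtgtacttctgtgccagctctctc
The Trbv13 segments were the other close group, with 90.6% identity between Trbv13-2 and Trbv13-3, 88.0% between Trbv13-1 and Trbv13-2 and 85.9% between Trbv13-1 and Trbv13-3. Among the other pairs of tested rows identity was at most 75.6%, between Trbv23 and the pseudogene Trbv24. Trbv4 and Trbv5 overlap another annotated gene, 5830405F06Rik, and the use of strand in counting was not stated, so their counts are uncertain.

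Total counts were 18667474 to 37110502 per sample, and the Trbv rows held 15679 to 28542 of them. At this depth the 95% Wilson interval of a segment's share in a single sample reached at most 0.477 percentage points to either side, for counting error only, since no molecular identifiers are mentioned. Trbv rows made up 941 ± 87.2 CPM (Trbv counts relative to the total count of the sample; mean ± SD, n = 3) in B6 CD4+ T cells, 798 ± 51.8 in B6 CD8+, 952 ± 57.0 in CD8.1 and 810 ± 36.6 among CD8.2 cells. On this scale samples did not overlap between either B6 CD4+ or CD8.1 T cells and either B6 CD8+ or CD8.2 T cells. The exact permutation test gave P = 0.1 for each of these 4 pairs, the smallest that 3 against 3 samples can give (two-sided). After Benjamini-Hochberg adjustment over 6 pairs it was 0.15. With TMM-scaled library sizes the B6 CD4+ samples, at 815 to 968 CPM, overlapped both the B6 CD8+ (741 to 827) and the CD8.2 samples (820 to 871). The CD8.1 samples, at 912 to 1000 CPM, stayed above both. As a percent of all V, D, J and constant counts of the locus, the order was different, with the Trbv rows at 36.3 ± 0.540% in CD4+ and 38.1 ± 0.979% in CD8+ samples of B6 mice, 38.3 ± 0.137% for CD8.1 and 39.4 ± 0.261% for CD8.2. In these bulk samples fewer cells using a segment and less RNA of it per cell cannot be told apart, nor can productive from unproductive rearrangements. The targeted Cd4 gene read 908 to 1004 CPM in B6 CD4+ and 0.109 to 0.337 CPM in B6 CD8+ T cells, against 47.2 to 51.5 CPM in CD8.1 and 1.11 to 1.79 CPM among CD8.2 cells, and Zbtb7b, which encodes the helper factor ThPOK, was at 117 to 173 CPM in CD8.1 and 1.60 to 2.11 CPM among CD8.2 cells. The αβ T cell markers Cd3d, Cd3e, Cd3g, Trac, Trbc1 and Trbc2 summed to 3810 to 4627 CPM over all samples. CD8.1 replicate 1 stood somewhat apart from its group in V usage, as given with the distances, and results that rest on it are also given without it.

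Of the 35 rows, 9 had no count in any sample, all of them pseudogenes (Trbv6, Trbv7, Trbv8, Trbv9, Trbv11, Trbv18, Trbv25, Trbv27 and Trbv28). A count of 0 allows a share of up to 0.0105% to 0.0191%, by the sample's depth. Another 3 pseudogenes, Trbv10, Trbv12-3 and Trbv22, were at 0 to 0.0640% in every sample, and Trbv21, annotated as functional, was at 0.00519% to 0.0483%. These 13 rows did not pass the filter on low counts. The 22 tested rows were 21 functional segments and the pseudogene Trbv24. Of them, 17 had a mean share of at least 1% and together took 97.8% to 98.8% of Trbv counts in each sample. Because exonic lengths of the tested rows ran from 335 to 566 bases, levels of different segments were compared per length. On that scale Trbv13-2 had the highest share in B6 CD4+ T cells (11.5% of length-adjusted Trbv counts) and in CD8.1 T cells (10.4%), and Trbv16 the highest in B6 CD8+ (10.8%) and CD8.2 T cells (10.0%). Trbv12-1 was 17th of the rows in B6 CD4+ T cells and 10th in B6 CD8+ T cells on that scale, and Trbv31 was 8th and 15th.

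**Figure D1:**
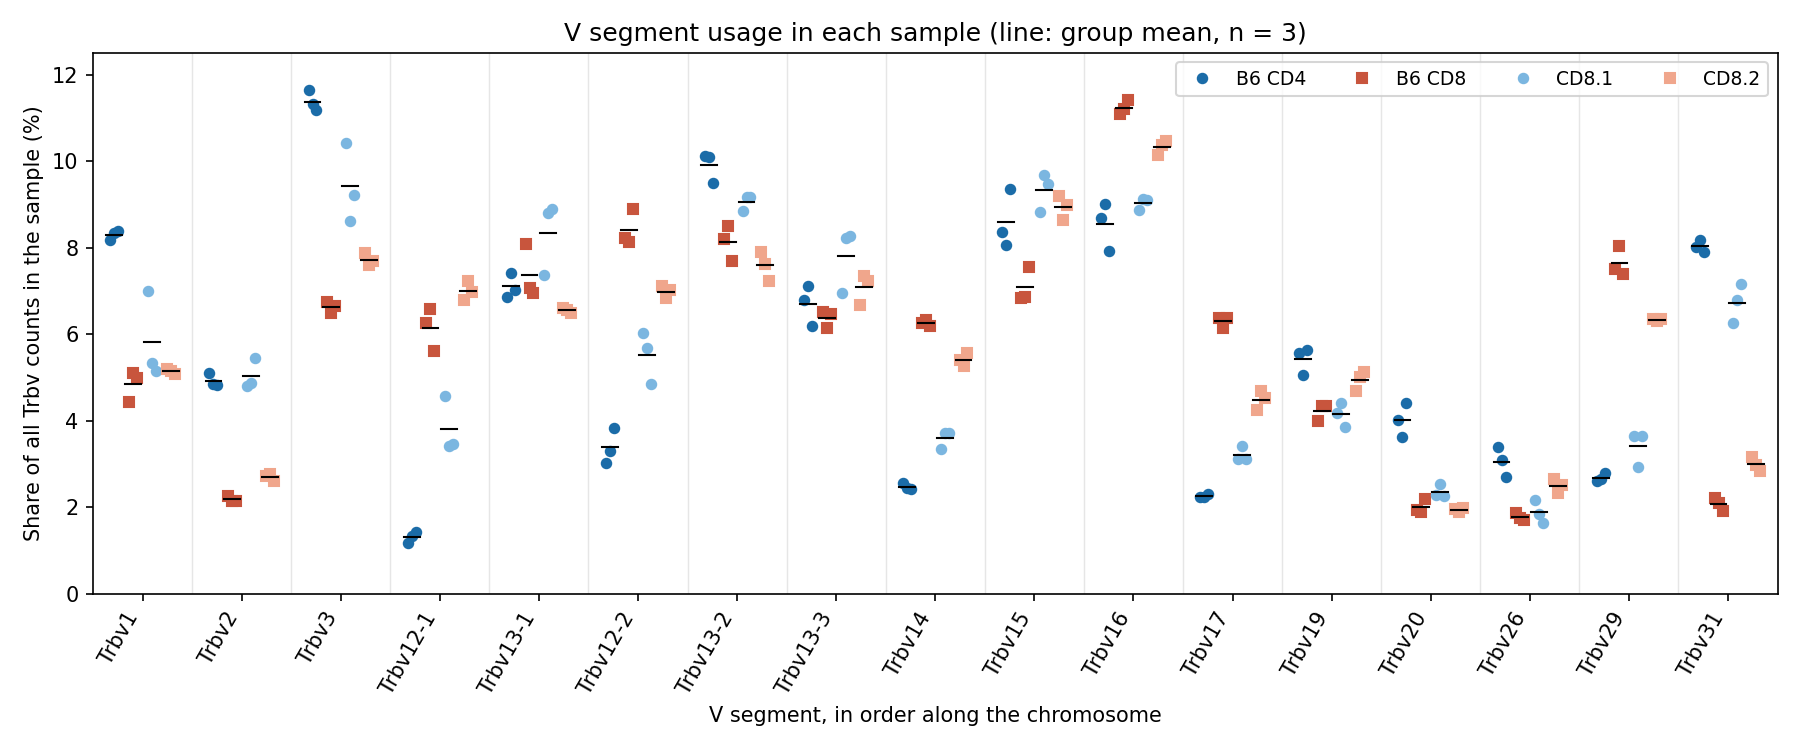
Share of all Trbv counts (percent, y axis) of the 17 segments with a mean share of at least 1%, in order along the chromosome (x axis), in each of the 12 samples. Each point is a sample, colours and shapes mark the 4 groups and the black lines are group means (n = 3). For Trbv12-1, the B6 CD4+ samples lie at 1.17% to 1.42% and the CD8.2 samples at 6.78% to 7.23%, with the CD8.1 samples between them at 3.42% to 4.58%.

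B6 CD4+ and CD8+ T cells were compared first, as the pair that shows how usage differs between helper and cytotoxic T cells in normal mice. Usage differed in 17 of 22 tested segments, 11 with a higher share among CD4+ cells and 6 among CD8+ cells (edgeR quasi-likelihood test, adjusted P under 0.05). Of all 13118 genes tested in the same fit, with each sample's Trbv total as library size, 27.2% were called, 6.24% higher and 20.9% lower in CD4+ T cells. The segments higher in CD4+ T cells took 25.2 percentage points more of the Trbv counts than in CD8+ T cells, and those lower took 25.3 points less. The median absolute log2 ratio was 0.78 over the 22 segments and 0.28 over all tested genes. With this scaling the median log2 ratio of all genes was -0.19 here, -0.19 for CD8.1 against CD8.2, -0.07 for CD8.1 against B6 CD4+, -0.09 for CD8.2 against B6 CD8+, -0.27 for CD8.1 against B6 CD8+ and 0.11 for CD8.2 against B6 CD4+ T cells, so a share ratio is a change relative to the other segments and not a level. With TMM scaling over all genes, 1499 genes were higher and 1531 lower in B6 CD4+ T cells against 818 and 2747 with the Trbv total, and no segment called here changed direction.

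Trbv31 (chr6:41557691-41558452, minus strand), known as Vβ14, had the largest ratio in favour of CD4+ T cells. Its share was 8.02%, 8.19% and 7.91% in the 3 CD4+ samples and 2.21%, 2.09% and 1.91% in the 3 CD8+ samples. The groups were far apart relative to their spread, with a log2 ratio of 1.96 ± 0.10 (SE), or 3.88-fold, and an adjusted P of 3.11e-10. Trbv2 (chr6:41047340-41047995, Vβ4) held 5.11%, 4.85% and 4.83% in CD4+ and 2.26%, 2.15% and 2.14% in CD8+ samples, a log2 ratio of 1.17 ± 0.10 (adjusted P = 1.07e-07). Trbv20 (chr6:41188273-41188977, Vβ15) held 4.01%, 3.63% and 4.42% against 1.93%, 1.89% and 2.19%, a log2 ratio of 1.01 ± 0.11 (adjusted P = 3.22e-06). For both segments every CD4+ sample was above every CD8+ sample, at about the same ratio. Trbv1, Trbv3 and Trbv26 formed a group with log2 ratios close to 0.8. Trbv1 (chr6:40891229-40891885, Vβ2) was at 8.18%, 8.34% and 8.39% in CD4+ and 4.42%, 5.104% and 4.998% in CD8+ samples (log2 ratio 0.78 ± 0.12). Trbv3 (chr6:41048290-41048828, Vβ16) was at 11.6%, 11.3% and 11.2% and 6.75%, 6.497% and 6.66% (log2 ratio 0.78 ± 0.09), which made it the segment with the largest share of raw Trbv counts in all 3 CD4+ samples. Trbv26 (chr6:41227505-41227993, Vβ3.1) was at 3.38%, 3.09% and 2.698% and 1.86%, 1.75% and 1.699% (log2 ratio 0.79 ± 0.12). Their adjusted P values were 9.24e-05, 9.61e-06 and 1.65e-04.

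Smaller ratios in the same direction were found for Trbv19, Trbv13-2 and Trbv15. Trbv19 (chr6:41178375-41179048, Vβ6) was at 5.57%, 5.05% and 5.63% in CD4+ and 3.998%, 4.34% and 4.34% in CD8+ samples, a log2 ratio of 0.36 ± 0.10 (adjusted P = 0.0124). Trbv13-2 (chr6:41121396-41121832, Vβ8.2) was at 10.1%, 10.1% and 9.497% and 8.21%, 8.49% and 7.704%, a log2 ratio of 0.28 ± 0.09 (adjusted P = 0.0264). Trbv15 (chr6:41141188-41141658, Vβ12) was at 8.36%, 8.07% and 9.36% and 6.85%, 6.85% and 7.55%, a log2 ratio of 0.28 ± 0.09 (adjusted P = 0.0383). The groups did not overlap for any of the 3, but these were the calls of this comparison that depended on single libraries. The adjusted P of Trbv13-2 rose to at most 0.0923 without B6 CD8+ replicate 1 or 3 or B6 CD4+ replicate 2, that of Trbv19 to 0.0587 without B6 CD8+ replicate 1, and that of Trbv15 to at most 0.172 without B6 CD4+ replicate 3, B6 CD8+ replicate 1 or 2, or any 1 of the CD8.2 samples, which enter through the shared estimate of the spread. Trbv5 and Trbv23 were rare but followed the same direction. Trbv5 (chr6:41062332-41062803, Vβ1) was at 0.290%, 0.311% and 0.330% in CD4+ and 0.133%, 0.156% and 0.169% in CD8+ samples (log2 ratio 1.02 ± 0.23, adjusted P = 0.00358). Trbv23 (chr6:41216073-41216526, Vβ20) was at 0.597%, 0.585% and 0.611% and 0.271%, 0.205% and 0.320% (log2 ratio 1.18 ± 0.21, adjusted P = 5.37e-04). Neither rare segment overlapped between the groups, which held for 17 of the 22 tested segments. The share of all genes without overlap was not computed for this or any other pair of groups. Counts of segments without overlap are thus descriptions only.

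The 6 segments with higher shares in B6 CD8+ T cells were Trbv12-1, Trbv12-2, Trbv14, Trbv16, Trbv17 and Trbv29. Trbv12-1 (chr6:41113550-41114067, Vβ5.2) had the largest ratio of all segments, with 1.17%, 1.33% and 1.42% in CD4+ and 6.26%, 6.58% and 5.62% in CD8+ samples. The share was thus 4.695-fold higher in CD8+ T cells (log2 ratio -2.23 ± 0.13, adjusted P = 1.29e-09). Its close copy Trbv12-2 (chr6:41118851-41119364, Vβ5.1) was at 3.03%, 3.303% and 3.84% and 8.22%, 8.13% and 8.89%, a log2 ratio of -1.31 ± 0.11 (adjusted P = 1.77e-07). The pair summed to 4.70 ± 0.536% in CD4+ and 14.6 ± 0.125% in CD8+ T cells (mean ± SD, n = 3), so the direction did not depend on how reads were divided between the copies. The count of Trbv12-1 over that of Trbv12-2 was 0.386 ± 0.0166 in CD4+ and 0.735 ± 0.0923 in CD8+ samples. Trbv29 (chr6:41271394-41271881, Vβ7) was at 2.601%, 2.65% and 2.78% in CD4+ and 7.5%, 8.04% and 7.38% in CD8+ samples (log2 ratio -1.51 ± 0.11, adjusted P = 1.28e-08). Trbv17 (chr6:41163062-41163556, Vβ9) was at 2.24%, 2.24% and 2.31% and 6.37%, 6.15% and 6.38% (log2 ratio -1.48 ± 0.10, adjusted P = 4.58e-09). Trbv14 (chr6:41135145-41135616, Vβ13) was at 2.56%, 2.44% and 2.43% and 6.27%, 6.32% and 6.197% (log2 ratio -1.34 ± 0.09, adjusted P = 1.32e-08). Each of these 3 segments was thus under 3% in every CD4+ sample and above 6% in every CD8+ sample. Trbv16 (chr6:41151740-41152230, Vβ11) differed least of the 6, with 8.69%, 9.003% and 7.93% against 11.1%, 11.2% and 11.4% (log2 ratio -0.40 ± 0.09, adjusted P = 0.00297), and with TMM scaling its log2 ratio was -0.20 and the adjusted P 0.0965.

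The 5 segments not called between B6 CD4+ and CD8+ T cells were Trbv13-1, Trbv13-3, Trbv4, Trbv24 and Trbv30. Trbv13-1 (chr6:41116007-41116468, Vβ8.3) was at 6.87%, 7.42% and 7.02% in CD4+ and 8.09%, 7.08% and 6.95% in CD8+ samples, and Trbv13-3 (chr6:41130147-41130585, Vβ8.1) at 6.79%, 7.11% and 6.18% and 6.51%, 6.14% and 6.48%. Both overlapped between the groups, with log2 ratios of -0.05 ± 0.10 and 0.07 ± 0.10. The 3 rare rows were at 0.221% to 0.369% (Trbv4), 0.0279% to 0.145% (Trbv24) and 0.380% to 0.598% (Trbv30) over the 6 B6 samples, with standard errors of their log2 ratios of 0.26, 0.48 and 0.24, so differences of the size seen for Trbv15 were not detectable for them.

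Position along the locus was not used to choose or test the segments. At its 5′ end, Trbv1, Trbv2, Trbv3 and Trbv5 had higher shares in B6 CD4+ T cells, as did Trbv31 at the other end. Trbv4, between Trbv3 and Trbv5, was not called (log2 ratio 0.19). In the middle, neighbours differed. Trbv12-1 and Trbv13-1 lie 1.94 kb apart and had log2 ratios of -2.23 and -0.05, Trbv12-2 and Trbv13-2 lie 2.03 kb apart and had -1.31 and 0.28, and Trbv14 and Trbv15 lie 5.57 kb apart and had -1.34 and 0.28. Trbv16 and Trbv17, 10.8 kb apart, were both lower in CD4+ T cells, and Trbv19, Trbv20, Trbv23 and Trbv26 that follow were higher. Trbv24, between Trbv23 and Trbv26, was not called (log2 ratio 0.20). Before Trbv31, Trbv29 was lower (-1.51) and Trbv30 was not called (0.16).

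**Figure D2:**
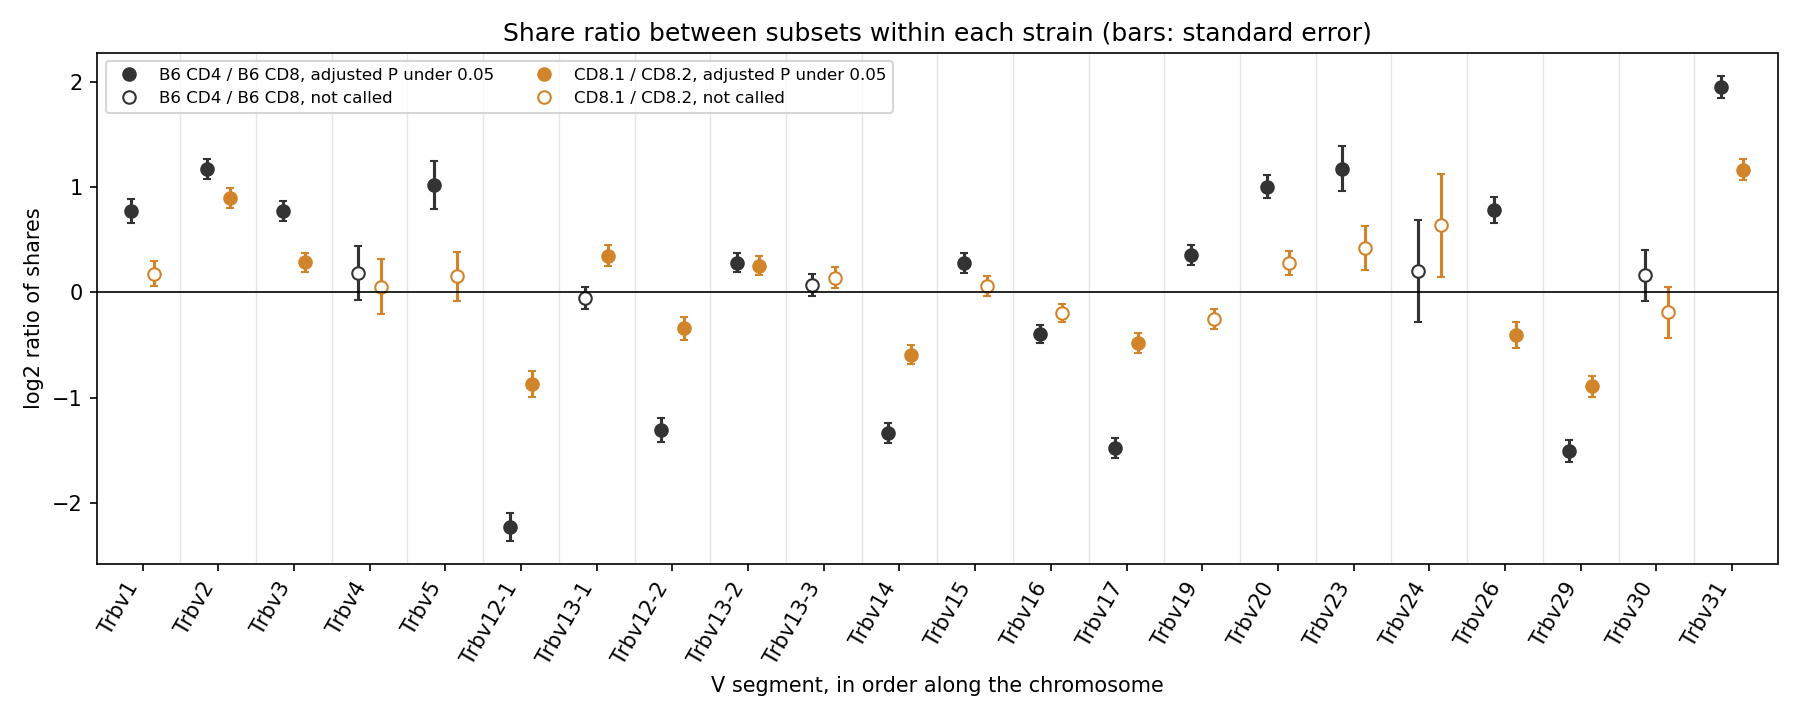
log2 ratio of shares (y axis) of B6 CD4+ over B6 CD8+ T cells (dark) and of CD8.1 over CD8.2 T cells (orange) for the 22 tested segments in order along the chromosome (x axis). Bars are standard errors, and filled points have an adjusted P under 0.05. Trbv31 and Trbv12-1 have the largest ratios in B6 mice, at 1.96 and -2.23, against 1.17 and -0.87 in CD8 Dual mice, and Trbv26 has opposite signs in the strains.

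CD8.1 cells and CD8.2 cells were then compared to see how usage differs when both subsets carry CD8 and are described as selected on MHC class I. Usage differed in 11 of 22 segments, 5 higher and 6 lower in CD8.1 T cells, while 33.2% of all tested genes were called, 8.46% higher and 24.8% lower. The segments higher in CD8.1 T cells took 11.04 percentage points more than in CD8.2 T cells and those lower 11.3 points less. With TMM scaling 1956 genes were higher and 1815 lower in CD8.1 T cells, against 1110 and 3249 with the Trbv total. The median absolute log2 ratio was 0.31 over the segments and 0.32 over all tested genes.

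Trbv31 again had the largest ratio in favour of the helper subset, with 6.25%, 6.79% and 7.16% in CD8.1 and 3.17%, 2.98% and 2.83% in CD8.2 samples (log2 ratio 1.17 ± 0.10, 2.25-fold, adjusted P = 2.09e-07). Trbv2 followed with 4.81%, 4.88% and 5.44% against 2.73%, 2.77% and 2.61% (log2 ratio 0.90 ± 0.10, adjusted P = 3.10e-06). The lowest CD8.1 sample was well above the highest CD8.2 sample for both. Over all 22 tested segments, 15 did not overlap between the subsets, a count without a share over all genes to set beside it. The other segments higher in CD8.1 T cells were Trbv3, Trbv13-1 and Trbv13-2. Trbv3 was at 10.4%, 8.63% and 9.22% in CD8.1 and 7.88%, 7.61% and 7.69% in CD8.2 samples, Trbv13-1 at 7.37%, 8.79% and 8.89% and 6.62%, 6.56% and 6.49%, and Trbv13-2 at 8.85%, 9.17% and 9.17% and 7.903%, 7.63% and 7.24%. Their log2 ratios were small, 0.29, 0.35 and 0.26, with adjusted P values of 0.0271, 0.0158 and 0.0364.

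Lower in CD8.1 T cells were Trbv29, Trbv12-1, Trbv14, Trbv17, Trbv12-2 and Trbv26. Trbv29 was at 3.66%, 2.93% and 3.64% in CD8.1 and 6.35%, 6.295% and 6.36% in CD8.2 samples (log2 ratio -0.89 ± 0.10, adjusted P = 8.25e-06). Trbv12-1 was at 4.58%, 3.42% and 3.46% and 6.78%, 7.23% and 6.99% (log2 ratio -0.87 ± 0.12, adjusted P = 6.25e-05). Both were the leading segments of this direction, with log2 ratios too close for their order to be settled. Trbv14 was at 3.35%, 3.71% and 3.72% against 5.42%, 5.27% and 5.56% (log2 ratio -0.59 ± 0.09, adjusted P = 1.59e-04), and Trbv17 at 3.11%, 3.43% and 3.11% against 4.24%, 4.69% and 4.53% (log2 ratio -0.48 ± 0.09, adjusted P = 0.00114). Trbv12-2 was at 6.02%, 5.67% and 4.86% against 7.104%, 6.84% and 7.01% (log2 ratio -0.34 ± 0.11, adjusted P = 0.0266), and the Trbv12 pair summed to 9.34 ± 1.16% in CD8.1 and 14.0 ± 0.0933% among CD8.2 cells (mean ± SD, n = 3). The count of Trbv12-1 over Trbv12-2 was 0.692 ± 0.0806 in CD8.1 and 1.003 ± 0.0519 in CD8.2 samples. Trbv26 was at 2.16%, 1.86% and 1.64% in CD8.1 and 2.66%, 2.34% and 2.51% in CD8.2 samples (log2 ratio -0.41 ± 0.12, adjusted P = 0.0194), which is the direction opposite to that in B6 mice. Of these 11 calls, 6 held without any 1 of the 12 samples (Trbv2, Trbv12-1, Trbv14, Trbv17, Trbv29 and Trbv31). Trbv12-2, Trbv13-1 and Trbv26 were lost without CD8.1 replicate 2 or 3 or CD8.2 replicate 1 or 3 taken out singly, with adjusted P values of at most 0.105, 0.0682 and 0.0829. Trbv13-2 was lost without any sample of the 2 groups other than CD8.1 replicate 1 (at most 0.154), and Trbv3 without CD8.1 replicate 1 or any CD8.2 sample (at most 0.0898). The number of called segments was 6 without CD8.2 replicate 1, 6 without CD8.2 replicate 3, 7 without CD8.1 replicate 2, 7 without CD8.1 replicate 3 and 10 without CD8.1 replicate 1. With TMM scaling 13 segments were called, beside 28.7% of all tested genes, and Trbv12-2 and Trbv26 were not, at adjusted P = 0.406 and 0.135.

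Segments called in B6 but not in CD8 Dual mice included Trbv1, Trbv19 and Trbv20. Trbv1 was at 7.0%, 5.33% and 5.15% in CD8.1 and 5.203%, 5.14% and 5.08% in CD8.2 samples, Trbv20 at 2.28%, 2.53% and 2.26% and 1.96%, 1.88% and 1.98%, and Trbv19 at 4.18%, 4.403% and 3.87% and 4.699%, 5.0% and 5.13%. The adjusted P values were 0.238, 0.0595 and 0.0566, and of the 3 only Trbv1 overlapped between the groups, through CD8.1 replicate 3. Trbv15 was at 8.83%, 9.68% and 9.47% and 9.196%, 8.65% and 8.997% and Trbv16 at 8.87%, 9.13% and 9.103% and 10.2%, 10.4% and 10.5%, with adjusted P values of 0.648 and 0.0969. Trbv13-3 was at 6.95%, 8.23% and 8.28% and 6.67%, 7.35% and 7.24% (adjusted P = 0.289). Trbv15 and Trbv13-3 overlapped between the subsets and Trbv16 did not. The rare Trbv5 was at 0.225%, 0.203% and 0.182% and 0.161%, 0.217% and 0.175% and Trbv23 at 0.416%, 0.393% and 0.489% and 0.260%, 0.395% and 0.315% (adjusted P = 0.633 and 0.127). Trbv4 ranged over 0.172% to 0.338%, Trbv24 over 0.0467% to 0.105% and Trbv30 over 0.266% to 0.530% in the 6 CD8 Dual samples, and no comparison called any of the 3 rows.

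The difference between subsets was compared between the strains by an interaction term, the log2 ratio of CD8.1 over CD8.2 minus that of B6 CD4+ over B6 CD8+ T cells. It was called for 9 of 22 segments, 5 positive and 4 negative, and for 1.68% of all tested genes, 1.49% positive and 0.191% negative. The positive ones were Trbv12-1, Trbv17, Trbv12-2, Trbv14 and Trbv29, all of them segments with higher shares in B6 CD8+ T cells whose ratio was nearer to 0 in CD8 Dual mice. The interaction was 1.36 ± 0.18 for Trbv12-1 (adjusted P = 3.08e-04), 1.00 ± 0.13 for Trbv17 (3.56e-04) and 0.97 ± 0.16 for Trbv12-2 (0.00208). The negative ones were Trbv26, Trbv31, Trbv20 and Trbv19, with -1.20 ± 0.17 for Trbv26 (adjusted P = 8.58e-04) and -0.79 ± 0.14 for Trbv31 (0.00477). Trbv31 and Trbv20 kept the B6 sign at a smaller size, and Trbv26 and Trbv19 had the opposite sign. Among the 17 segments called in B6 mice, 15 had the same sign in CD8 Dual mice, 9 of them called, and 1 (Trbv26) was called with the opposite sign. The ratio was nearer to 0 in CD8 Dual mice for all 17, but as these were chosen by their B6 ratios, that count is a description. One segment, Trbv13-1, was called in CD8 Dual mice only, and its interaction was 0.40 with an adjusted P of 0.294. Without CD8.1 replicate 1 the interaction was called for 12 segments, with Trbv1, Trbv3 and Trbv13-1 added. It was called for 6 segments without B6 CD4+ replicate 3, B6 CD8+ replicate 1, B6 CD8+ replicate 2, CD8.1 replicate 3, CD8.2 replicate 1 or CD8.2 replicate 3, taken out singly. The calls lost were among Trbv19, Trbv20 and Trbv29, whose adjusted P values rose to at most 0.118, 0.0840 and 0.131. Trbv29 alone was also lost without B6 CD4+ replicate 1 or replicate 2, and Trbv19 and Trbv29 without B6 CD8+ replicate 3 or CD8.2 replicate 2.

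CD8.1 and B6 CD4+ T cells, the 2 groups high in Zbtb7b, were compared next, to see how usage differs between helper T cells of the strains. These groups differ in strain, in co-receptor and in the MHC class that it binds, and these cannot be told apart here. Usage differed in 8 of 22 segments, 4 higher and 4 lower in CD8.1 T cells, beside 7.87% of all tested genes, 3.48% higher and 4.38% lower. Higher in CD8.1 T cells were Trbv12-1, at 2.91-fold (log2 ratio 1.54 ± 0.13, adjusted P = 2.22e-06), Trbv12-2 (0.70 ± 0.11, 0.00130), Trbv14 (0.54 ± 0.09, 0.00259) and Trbv17 (0.51 ± 0.10, 0.00471). For Trbv12-1 every CD8.1 sample was at 3.42% or more and every B6 CD4+ sample at 1.42% or less. Lower in CD8.1 T cells were Trbv20 (log2 ratio -0.77 ± 0.11, adjusted P = 4.69e-04), Trbv26 (-0.70 ± 0.12, 0.00302), Trbv1 (-0.51 ± 0.11, 0.0138) and Trbv19 (-0.38 ± 0.10, 0.0245). The samples of the 2 groups did not overlap for 14 of the 22 segments, among them all 8 called ones, so lack of overlap did not set the calls apart. Trbv29 and Trbv31 were among the segments without overlap that were not called, at log2 ratios of 0.35 ± 0.10 and -0.26 ± 0.10 and adjusted P = 0.0533 and 0.113. Trbv2, with 0.03 ± 0.09, overlapped between the groups. Trbv1 was not called without CD8.1 replicate 2 (adjusted P = 0.0712), nor Trbv19 without B6 CD4+ replicate 1 or CD8.1 replicate 3 (at most 0.0777). Without CD8.1 replicate 1, Trbv3 and Trbv13-1 were added, at adjusted P = 0.0196 and 0.0453, and without CD8.1 replicate 2 Trbv29 was added, at 0.0301. When only these 2 groups entered the fit, 5 segments were called, without Trbv1, Trbv17 and Trbv19. The count over all genes in that fit is not given here.

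CD8.2 and B6 CD8+ T cells, the 2 groups with CD8 made from the Cd8 locus, differed in 3 of 22 segments, 2 higher and 1 lower among CD8.2 cells, beside 5.02% of all tested genes, 1.07% higher and 3.94% lower. Trbv31 was higher in CD8.2 T cells (log2 ratio 0.53 ± 0.10, adjusted P = 0.00634), as was Trbv26 (0.50 ± 0.12, 0.0293), and Trbv17 was lower (-0.49 ± 0.09, 0.00573). The largest of these ratios was 1.45-fold. The samples of the 2 groups did not overlap for 14 of the 22 segments, among them these 3 and also segments not called, such as Trbv12-1. Trbv12-1, the segment that differed most between the helper groups (CD8.1 over B6 CD4+), had a log2 ratio of 0.19 ± 0.12 here and an adjusted P of 0.432. The call of Trbv26 was lost without any 1 of the 6 samples of these groups (adjusted P at most 0.119). With TMM scaling 6 segments were called, beside 1042 of all 13118 tested genes, with Trbv2, Trbv3 and Trbv15 added as higher among CD8.2 cells. With only these 2 groups in the fit 7 were called, with Trbv2, Trbv12-2, Trbv15 and Trbv29 added. The count over all genes in that fit is not given here. Trbv15 had an adjusted P of 0.0507 in the fit of all 12 samples. It was 0.0350 without CD8.1 replicate 1, 0.0334 without B6 CD4+ replicate 1 and 0.0408 without B6 CD4+ replicate 3. These samples enter through the shared estimate of the spread.

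**Figure D3:**
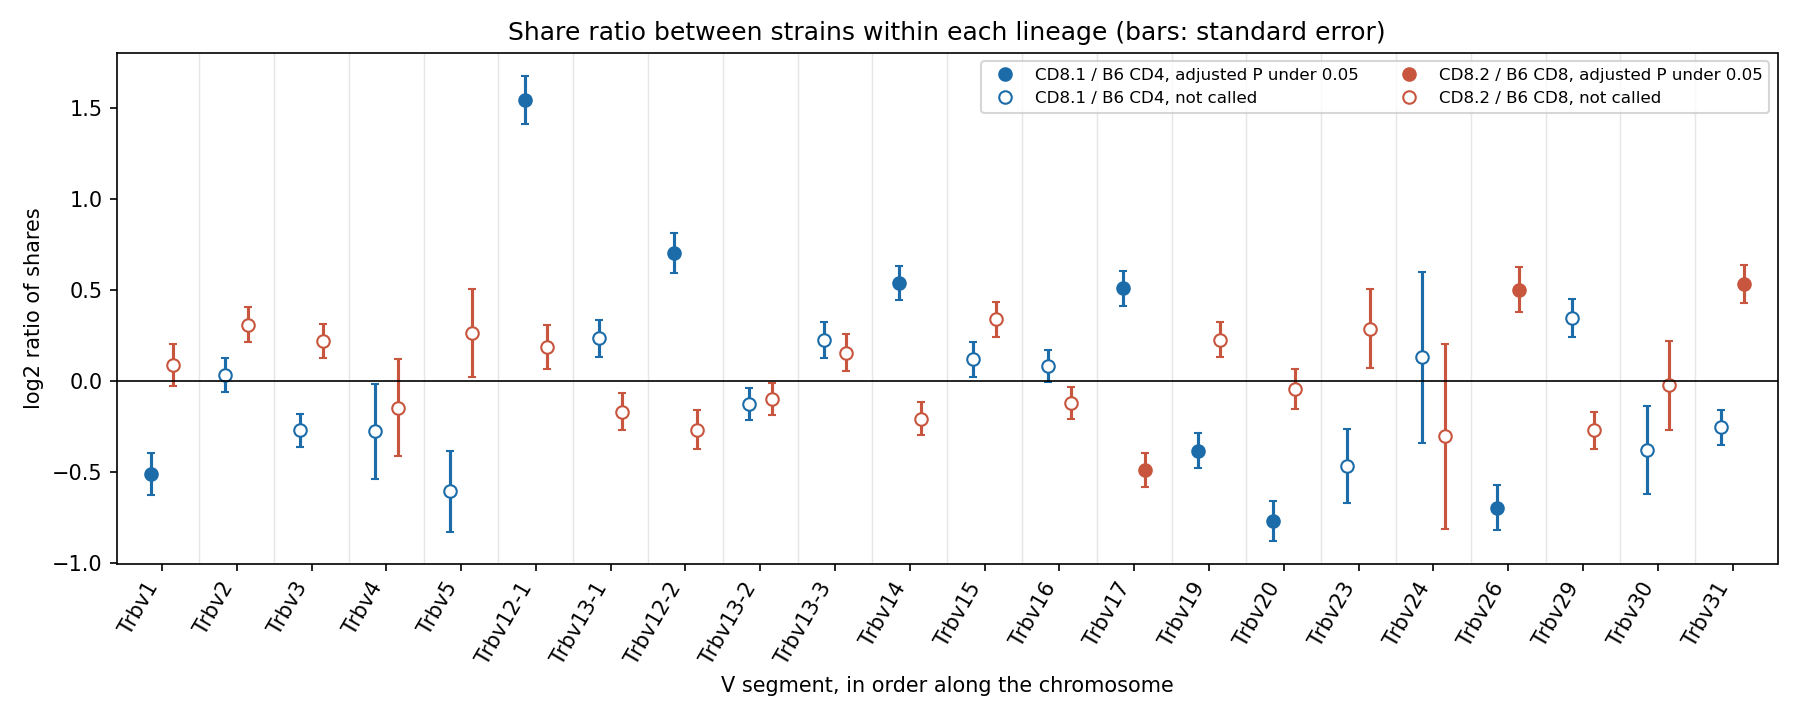
log2 ratio of shares (y axis) of CD8.1 over B6 CD4+ T cells (blue) and of CD8.2 over B6 CD8+ T cells (red) for the 22 tested segments in order along the chromosome (x axis). Bars are standard errors, and filled points have an adjusted P under 0.05. Trbv12-1 has the largest ratio, 1.54, in CD8.1 over B6 CD4+ T cells, and all ratios of CD8.2 over B6 CD8+ T cells lie between -0.49 and 0.53.

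The remaining pairs of groups cross both strain and lineage. CD8.1 and B6 CD8+ T cells, both of which carry CD8, differed in 12 of 22 segments, 6 higher and 6 lower in CD8.1 T cells, beside 46.3% of all tested genes, 8.9% higher and 37.4% lower. The largest ratios were those of Trbv31 (log2 1.70 ± 0.10), Trbv2 (1.21 ± 0.10) and Trbv29 (-1.16 ± 0.10), with adjusted P values of 2.05e-09, 7.36e-08 and 2.94e-07. Also higher were Trbv3, Trbv13-3, Trbv15 and Trbv23, and also lower Trbv12-1, Trbv12-2, Trbv14, Trbv16 and Trbv17. The calls of Trbv13-3 and Trbv23 were lost without B6 CD8+ replicate 2, and that of Trbv13-3 also without B6 CD8+ replicate 1 or CD8.1 replicate 2 or 3, with adjusted P values of at most 0.0913 and 0.0690. Without CD8.1 replicate 1, Trbv13-1 was added as higher in CD8.1 T cells, at a log2 ratio of 0.26 and adjusted P = 0.0361. With TMM scaling 17 segments were called, beside 5131 of all 13118 tested genes. Trbv16 was not called, at a log2 ratio of -0.05 (adjusted P = 0.679). CD8.2 and B6 CD4+ T cells differed in 14 of 22 segments, 6 higher and 8 lower among CD8.2 cells, beside 23.9% of all tested genes, 15.9% higher and 7.98% lower. Trbv12-1 had the largest ratio of any pair of groups, 5.34-fold (log2 2.42 ± 0.13, adjusted P = 5.86e-10), and was the only segment past a fold change of 5, the limit used in the study, in any comparison. Trbv31 had -1.43 ± 0.10 and Trbv29 1.24 ± 0.10 (adjusted P = 1.55e-08 and 1.75e-07). The calls of Trbv16 and Trbv5 were lost without B6 CD4+ replicate 3 or CD8.2 replicate 1 or 3, and also without CD8.2 replicate 2 (Trbv16) or B6 CD4+ replicate 2 (Trbv5), with adjusted P values of at most 0.128 and 0.0993, and with TMM scaling Trbv16 was not called (0.164). These comparisons reuse the samples of those above. Over the 6 pairs of groups, Trbv17 was called in all 6, Trbv12-1, Trbv12-2, Trbv14 and Trbv31 in 5, and Trbv13-1 and Trbv13-3 in 1 each with all 12 samples in the fit.

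The order of the groups differed between segments. Of the 17 segments called in B6 mice, the CD8.1 mean lay between the B6 means for 14, and was nearer to the CD4+ mean for 11. Trbv2, Trbv15 and Trbv19 were outside that range. The CD8.2 mean lay between the B6 means for 13 of the 17 and was nearer to the CD4+ mean for 3. As these segments were chosen by their B6 ratios, and shares within a sample depend on each other, these counts are descriptions. As a summary of the whole profile, the usage distance of 2 samples was taken as the sum of the absolute differences in share over all Trbv rows divided by 2, which is the percent of Trbv counts that would have to change segment to make the samples alike. Samples of a group lay 1.51% to 6.27% apart, with group means of 2.01% for CD8.2, 2.94% for B6 CD8+, 3.24% for B6 CD4+ and 5.03% for CD8.1 samples. The largest of these distances were those of CD8.1 replicate 1 to the other CD8.1 samples, 6.20% on average, against 2.70% between CD8.1 replicates 2 and 3. In that sample Trbv1, Trbv3 and Trbv12-1 had higher shares, and Trbv13-1 and Trbv13-3 lower shares, than in either other CD8.1 sample. Between groups, the mean distance was 25.9% for B6 CD4+ and CD8+ T cells and 13.6% for CD8.1 cells and CD8.2 cells. It was 11.4% for B6 CD4+ and CD8.1 T cells, 7.91% for B6 CD8+ and CD8.2 T cells, 17.9% for B6 CD8+ and CD8.1 T cells and 20.9% for B6 CD4+ and CD8.2 T cells. Every sample of a group was nearer to all samples of its own group than to any sample of another group. No test was made of this score, since it is built from the segments described above.

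**Figure D4:**
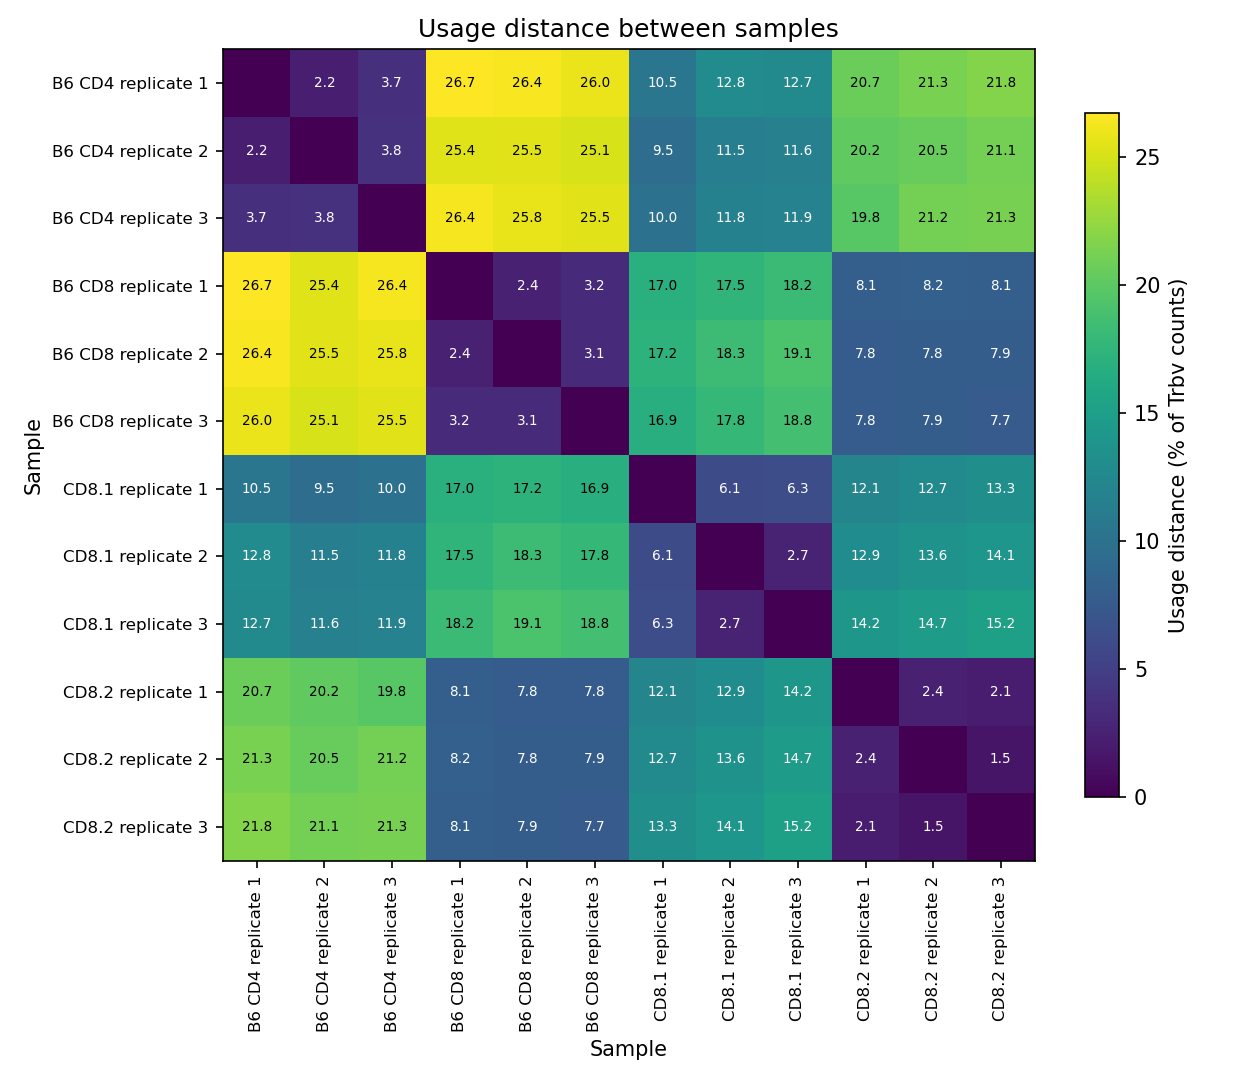
Usage distance, in percent of Trbv counts, between each pair of the 12 samples (both axes list the samples by group, and the colour bar gives the distance). The dark blocks on the diagonal are samples of the same group, the brightest blocks are B6 CD4+ against B6 CD8+ T cells at 25.1% to 26.7%, and the CD8.2 samples lie 7.72% to 8.17% from the B6 CD8+ samples.

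Other genes of the locus and of the receptor were tested at TMM-scaled levels, with 23.1% of all tested genes called between B6 CD4+ and CD8+ T cells and 28.7% between the subsets of CD8 Dual mice. Of the 18 constant, D and J rows of the Trb locus, 17 were tested, and 8 were higher and 0 lower in B6 CD4+ than in CD8+ T cells (median log2 0.54). Between the subsets of CD8 Dual mice 5 were higher and 0 lower (median 0.34). The constant region Trbc2 was at 1020.5 ± 99.6 CPM in B6 CD4+ and 823 ± 24.4 CPM in B6 CD8+ T cells (log2 0.31 ± 0.08), and at 1025 ± 63.7 and 799 ± 23.8 CPM in the CD8.1 and the CD8.2 subset (log2 0.36 ± 0.08), called in both strains. Trbc1, the other constant region, was called in B6 mice (0.27 ± 0.07) and was not called (adjusted P = 0.991) in CD8 Dual mice. Of the 7 genes of the TCR complex (Trac, Trbc1, Trbc2, Cd3d, Cd3e, Cd3g and Cd247), 4 were higher and 0 lower in B6 CD4+ T cells (median 0.27), and 3 higher and 1 lower in CD8.1 T cells (median 0.08). Of the 12 genes of V(D)J recombination, 10 were tested, with 2 higher and 2 lower in B6 CD4+ T cells (median -0.01) and 1 higher and 2 lower in CD8.1 T cells (median -0.15). Rag1 was at 0 to 0.111 CPM and Rag2 at 0 in every sample. Dntt, the terminal transferase that adds bases at the joints, was at 11.2 ± 2.91 CPM in B6 CD4+ and 5.60 ± 2.14 CPM in B6 CD8+ T cells (log2 0.99 ± 0.24), against 10.7 ± 0.674 and 11.6 ± 1.06 CPM in the CD8.1 and the CD8.2 subset, where it was not called (adjusted P = 0.735). Among the 6 trypsinogen genes that lie within the locus only Prss2 could be tested, at 0.316 ± 0.280 CPM in B6 CD4+ and 2.10 ± 0.329 CPM in B6 CD8+ T cells (log2 -2.71 ± 0.49) and 0.690 ± 0.314 and 1.43 ± 0.472 CPM in the CD8.1 and the CD8.2 subset (adjusted P = 0.110).

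Markers of other T cells moved with the groups. Regulatory T cell markers (7 genes) were called higher for 5 and lower for 1 in B6 CD4+ than in CD8+ T cells and higher for 6 and lower for 1 in CD8.1 cells than among CD8.2 cells, with Foxp3 at 32.6 to 44.6 CPM in B6 CD4+, 0.182 to 0.529 in B6 CD8+, 102 to 168 in CD8.1 and 0.809 to 1.46 in CD8.2 samples. Their summed level was 226 to 310 CPM in B6 CD4+, 516 to 550 in B6 CD8+, 648 to 689 in CD8.1 and 360 to 391 in CD8.2 samples, most of it from Il2rb in B6 CD8+ T cells. Memory and effector markers (6 genes) were all lower in B6 CD4+ than in CD8+ T cells, and 1 higher and 5 lower in CD8.1 cells than among CD8.2 cells, summing to 48.0 to 59.4, 615 to 708, 127 to 135 and 379 to 383 CPM in the same order of groups. Markers of NKT cells (5 genes, 2 tested), which use a restricted set of V segments, summed to 1.96 to 2.98, 27.9 to 44.6, 4.32 to 7.78 and 17.3 to 17.4 CPM. Most of this sum was Cd160 in B6 CD8+ and CD8.2 T cells, at means of 32.5 and 15.8 CPM. Both tested markers, Cd160 and Klrb1c, were lower in B6 CD4+ and in CD8.1 T cells. The untested ones were not. The defining Zbtb16 was at 0 in all B6 samples, 0 to 0.0426 CPM in CD8.2 and 0.191 to 1.02 CPM in CD8.1 samples. Il4 was at 0 in all B6 and CD8.2 samples and at 0.0477 to 0.522 CPM in CD8.1 samples. Klrb1b was at 0 to 0.354 CPM over all samples. Markers of γδ T cells, of which 5 of 8 were in the table and 4 tested, summed to 11.4 to 12.4, 9.29 to 11.5, 17.1 to 19.4 and 8.37 to 9.75 CPM, with 1 higher and 2 lower in B6 CD4+ and 4 higher in CD8.1 T cells. B cell markers (8 genes) summed to 64.6 to 166 CPM and myeloid markers (6 genes) to 65.8 to 107 CPM over all samples, with 4 and 1 higher and 1 and 0 lower in B6 CD4+ and 2 and 2 higher and 0 and 0 lower in CD8.1 T cells. The part of these cell types in the usage differences was not tested.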

How the data were processed

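RNA-seq was done on 4 groups of 3 samples. Raw counts per gene were deposited by the authors, made with STAR and RSEM on mm10 per the labels' processing notes, which also name limma. Versions, annotation and strand setting are not given in the sources used here. All 12 columns were matched to samples by title, and 0 columns were left out.

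Usage was tested with edgeR 4.0.16 (quasi-likelihood, R 4.3.3) on the 13118 genes that passed filterByExpr, with the Trbv total of each sample as library size and Benjamini-Hochberg adjustment over all tested genes. A segment was called at an adjusted P under 0.05. Error values are SD for shares and CPM and SE for log2 ratios. Gene lists outside the V segments were tested with TMM scaling. The scripts were tested on simulated data. The members and lists were chosen with earlier results of these data known. Values per sample are given for each called segment and ranges for the others. Alternatives used DESeq2 1.42.0, limma 3.58.1, other scalings, filters, denominators and call limits, summed close copies, and each sample left out.

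Deviations of same-numbered samples from their group means, over all tested genes, correlated at 0.126, 0.138 and 0.257 between B6 CD4+ and CD8+ T cells. Over the tested Trbv rows the values were 0.153, -0.550 and 0.720. These values do not settle whether replicate numbers pair the B6 samples. Between the subsets of CD8 Dual mice the values were -0.00388, 0.0905 and 0.119 over all tested genes and -0.352, -0.387 and -0.368 over the Trbv rows. These samples were taken as sharing only a number. The main fit held the groups only, without pairing, and a replicate block was used as an alternative.

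Annotation and transcript sequences were from GENCODE M21 (GRCm38).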

Additional observations from a re-analysis of the deposited data

Results flagged for a closer look

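The ratio of helper to cytotoxic shares differed between CD8 Dual and B6 mice for 9 segments by the interaction test of edgeR (adjusted P under 0.05, 1.68% of all tested genes called). The values are the log2 ratio of CD8.1 over CD8.2 T cells minus that of B6 CD4+ over B6 CD8+ T cells, with SE.

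The interaction was above 0 for Trbv12-1 (1.36 ± 0.18, adjusted P = 0.000308), Trbv17 (1.00 ± 0.13, 0.000356), Trbv12-2 (0.97 ± 0.16, 0.00208), Trbv14 (0.75 ± 0.13, 0.00425) and Trbv29 (0.62 ± 0.15, 0.0409). It was below 0 for Trbv26 (-1.20 ± 0.17, adjusted P = 0.000858), Trbv31 (-0.79 ± 0.14, 0.00477), Trbv20 (-0.72 ± 0.15, 0.0208) and Trbv19 (-0.61 ± 0.14, 0.0302). Of these, Trbv26 was called in opposite directions in the strains. Its call in CD8 Dual mice was lost with TMM scaling (edgeR, adjusted P = 0.135) and in 4 of the 12 fits with 1 sample left out. The interaction calls of Trbv29, Trbv19 and Trbv20 were lost in 10, 8 and 6 of these 12 fits.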

How the results depend on the processing

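No called segment changed direction under any alternative tried. With the fold limit of 5 and unadjusted P used in the study, 0 segments were called in each comparison except CD8.2 against B6 CD4+ T cells, with 1. At any fold, edgeR gave an unadjusted P under 0.05 for 17 segments in B6 CD4+ against CD8+, 14 in CD8.1 against CD8.2, 15 in CD8.1 against B6 CD4+, 10 in CD8.2 against B6 CD8+, 14 in CD8.1 against B6 CD8+, 15 in CD8.2 against B6 CD4+ and 14 in the interaction, of 22 each, beside 5152, 5829, 3251, 2570, 7084, 4669 and 1270 of all 13118 genes in the same order. Between CD8.1 and the B6 CD4+ group, 5 segments were called with only these groups in the fit. For CD8.2 against B6 CD8+ T cells, 6 were called with TMM scaling, 6 with DESeq2 size factors, 5 with the DESeq2 test and 7 with only these groups. Of all 13118 genes, 1042 were called with TMM scaling and 1036 with DESeq2 size factors. Counts over all genes with the DESeq2 test or with only the groups compared are not given here. The log2 ratio of Trbv levels, taken as a share of the beta locus in place of CPM, was -0.0705 for B6 CD4+ against CD8+, -0.119 for B6 CD4+ against CD8.2, -0.00534 for B6 CD8+ against CD8.1 and -0.0427 for CD8.1 against CD8.2 T cells. Jensen-Shannon distances are another measure, in percent of its largest possible value and not of Trbv counts. They were 27.6% for B6 CD4+ and CD8+, 13.0% for B6 CD4+ and CD8.1, 23.3% for B6 CD4+ and CD8.2, 19.2% for B6 CD8+ and CD8.1 and 14.8% for CD8.1 cells and CD8.2 cells. With close copies summed, the distance of B6 CD8+ and CD8.2 T cells was 6.38%. The share of the locus and the Jensen-Shannon distance differ from the main measures by definition. Causes of the other changes were not tested.

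With 1 sample left out at a time, called segments numbered 14 to 17 (B6 CD4+ against CD8+), 6 to 12 (CD8.1 against CD8.2), 7 to 10 (CD8.1 against B6 CD4+), 2 to 4 (CD8.2 against B6 CD8+), 10 to 13 (CD8.1 against B6 CD8+), 12 to 14 (CD8.2 against B6 CD4+) and 6 to 12 (interaction). Log2 ratios of Trbv levels were 0.18 to 0.31 (B6 CD4+ against CD8+), -0.08 to 0.05 (B6 CD4+ against CD8.1), 0.16 to 0.29 (B6 CD4+ against CD8.2), -0.30 to -0.20 (B6 CD8+ against CD8.1), -0.06 to 0.03 (B6 CD8+ against CD8.2) and 0.20 to 0.28 (CD8.1 against CD8.2). Distances were 25.6% to 26.1%, 11.02% to 12.04%, 20.6% to 21.2%, 17.4% to 18.3%, 7.81% to 7.97% and 13.1% to 14.1% in the same order of pairs.

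A replicate block within each strain gave 17 called segments in B6 mice, 13 in CD8 Dual mice (Trbv19 and Trbv20 added) and 11 for the interaction (Trbv1 and Trbv3 added). That block could not be fitted between strains. A block shared by the strains, chosen after seeing the data, gave 8, 4, 12 and 14 called segments for CD8.1 against B6 CD4+, CD8.2 against B6 CD8+, CD8.1 against B6 CD8+ and CD8.2 against B6 CD4+ T cells.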

Other observations

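The number of effectively used segments, the exponential of the Shannon entropy of the shares, was 15.9 ± 0.227 in CD4+ and 16.1 ± 0.0819 in CD8+ T cells of B6 mice, 16.3 ± 0.0892 for CD8.1 and 16.5 ± 0.0376 among CD8.2 cells (mean ± SD, n = 3). The leading 5 segments of a sample took 46.8 ± 0.349%, 43.0 ± 0.0928%, 45.2 ± 0.776% and 41.8 ± 0.350% of Trbv counts in the same order of groups. Trbv12 and Trbv13 segments lie interleaved, and the Trbv13 sum was 23.7 ± 0.960%, 21.9 ± 0.848%, 25.2 ± 1.79% and 21.2 ± 0.284%. Pseudogene rows held 14 to 48 counts per sample.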
